A study of Mus musculus with 8 samples.

Results

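The 10 probe sets of 9 mitotic genes described here read Cdk1, its cyclin partners Ccna2 (measured by 2 probe sets), Ccnb1 and Ccnb2, the kinase Plk1, the anaphase activator Cdc20, the chromosome proteins Top2a and Birc5, and the proliferation marker Mki67. They were chosen by probe set identifier, with the pairing of identifier and gene given, and all 10 were found among the 45101 probe sets of the deposited table. That pairing was not checked here against a probe annotation. Affymetrix arrays were hybridized with RNA of mouse bone marrow cells in 4 groups of 2 arrays: wild-type and miR-223 null progenitors after 4 days with G-CSF (granulocyte colony-stimulating factor) and SCF (stem cell factor), and wild-type and miR-223 null mature neutrophils at day 8, after 6 days with the same factors followed by 42 hours in which SCF was left out. All cells came from bone marrow progenitors grown in SILAC-IMDM medium, and all were sorted: c-Kit positive, Gr-1 negative at day 4, and c-Kit negative, Gr-1 positive at day 8. Day, sorted phenotype and SCF withdrawal therefore changed together and cannot be told apart. Whether the arrays of a group stand for separate animals or cultures is not stated, so p-values measure the spread between arrays, which may be technical.

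The microRNA that the null animals lack is printed here because it defines the genotype, with the seed (bases 2 to 8) in capitals. RefSeq places the mature mmu-miR-223-3p at chrX:96242884-96242905 on the plus strand of GRCm38.p6.
mmu-miR-223-3p: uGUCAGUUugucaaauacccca

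Cells enter mitosis when the kinase Cdk1 is bound by A and B cyclins, and leave it when the anaphase promoting complex, with Cdc20, marks cyclins and other proteins for destruction. Transcripts of this group rise together in G2 phase, and many of their promoters carry a CHR element (cell cycle genes homology region), bound by the DREAM and MuvB complexes, beside CCAAT boxes bound by NF-Y. In the granulocyte lineage, promyelocytes and myelocytes divide, whereas later stages up to the segmented neutrophil do not.

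RefSeq promoter windows of 300 bases (250 before and 50 after the transcription start, GRCm38.p6) were found for 8 of the 9 genes; Ccna2 had no entry. The CHR letters TTTGAA and TTCGAA, searched on both strands, were present in 6 of the 8 windows, and CCAAT, on both strands, in 7. Both were present in 6. Of all 32851 windows of this length, 19.2% held the CHR letters, 37.4% held CCAAT and 7.52% held both. Of these letters, the Ccnb1 window held CCAAT only, and that of Birc5 neither kind. Only these letters were searched, so a window without them is not shown to lack the element. The 250 bases before the start are printed for the 2 genes with the largest falls in both genotypes, Cdk1 (chr10:69352913-69353162, minus strand) and Cdc20 (chr4:118437344-118437593, minus strand), and for 2 with small changes, Ccnb2 (chr9:70421555-70421804, minus strand) and Mki67 (chr7:135716380-135716629, minus strand). Capitals mark CHR letters and CCAAT boxes in either orientation.
Cdk1: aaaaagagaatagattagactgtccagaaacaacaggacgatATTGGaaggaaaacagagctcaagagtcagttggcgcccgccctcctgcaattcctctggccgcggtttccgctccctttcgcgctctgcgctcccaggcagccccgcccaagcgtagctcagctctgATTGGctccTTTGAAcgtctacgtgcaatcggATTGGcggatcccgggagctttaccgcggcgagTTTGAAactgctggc
Cdc20: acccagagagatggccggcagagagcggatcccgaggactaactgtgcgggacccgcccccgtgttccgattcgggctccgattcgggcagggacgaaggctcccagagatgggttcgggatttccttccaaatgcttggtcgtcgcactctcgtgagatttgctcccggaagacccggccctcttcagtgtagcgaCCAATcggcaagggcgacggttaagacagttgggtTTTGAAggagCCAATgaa
Ccnb2: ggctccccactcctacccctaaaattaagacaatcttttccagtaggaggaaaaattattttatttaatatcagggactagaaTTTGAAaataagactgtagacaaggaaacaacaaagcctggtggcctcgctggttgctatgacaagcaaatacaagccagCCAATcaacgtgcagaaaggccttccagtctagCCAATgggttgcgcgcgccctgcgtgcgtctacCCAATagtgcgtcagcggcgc
Mki67: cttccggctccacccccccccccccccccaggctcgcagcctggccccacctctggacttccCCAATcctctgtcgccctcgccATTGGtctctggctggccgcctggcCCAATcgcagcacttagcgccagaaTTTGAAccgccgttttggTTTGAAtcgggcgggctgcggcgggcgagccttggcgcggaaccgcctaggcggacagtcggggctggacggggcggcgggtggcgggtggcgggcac
All 4 stretches hold both kinds of letters. The nearest CHR letters before the start began 15 bases away in Cdk1, 18 in Cdc20 and 98 in Mki67. Ccnb2 had CHR letters at 167 bases before the start and again 5 bases into the transcript. A match is a stretch of letters and not a measured site.

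From progenitor to mature neutrophil, the mitotic transcripts fell, but by little. In wild-type cells 9 of the 10 probe sets were lower at day 8 (limma, Benjamini-Hochberg adjusted p below 0.05 over all 22519 probe sets tested), and 41.7% of all tested probe sets were called lower in this comparison. In null cells 9 of 10 were lower as well, against 39.9% of all tested. No probe set of the group rose in either genotype. The arrays of the days did not overlap for 9 of the 10 in each genotype, beside 46.2% of all tested probe sets that were lower without overlap in wild type and 45.3% in null. The median change of the 10 was -0.46 on the log2 scale in wild type and -0.65 in null, beside -0.04 and 0.00 for all tested probe sets. None of the 10 reached a 2-fold fall in wild type and 2 did in null (Cdk1 and Cdc20), whereas 20.7% and 20% of all tested probe sets were called lower by at least 2-fold. The null count moved with the setting, and Cdc20 lay at the 2-fold line. After quantile normalization the count was 1, with Cdc20 at -0.95. After cyclic loess it was 0, with Cdk1 at -0.99 and Cdc20 at -0.89. Cdc20 was at -0.9996 without replicate 1 of the null day 4 group and at -0.89 without that of the null day 8 group. Leaving out replicate 2 of the null day 8 group brought Ccnb1 to -1.0008. With equal hybridization controls the null count was 5, and wild-type Cdk1 also passed (-1.08). Sorted by change, the 10 lay between percentiles 22.7 and 48.9 of all tested probe sets in wild type, and between percentiles 18.1 and 49.1 in null. On every array all 10 values lay between 9.78 and 12.19, far above the value of 5.51 below which probe sets were not tested. At day 8 the upper quartile of an array was 7.72 to 7.80, and Mki67 stood at 12.02 to 12.14. These signals thus stayed high in the cells named mature neutrophils. How many of those cells were dividing was not tested. In a sorted population, fewer cells in cycle and less of these RNAs per cell cannot be told apart.

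**Figure D1:**
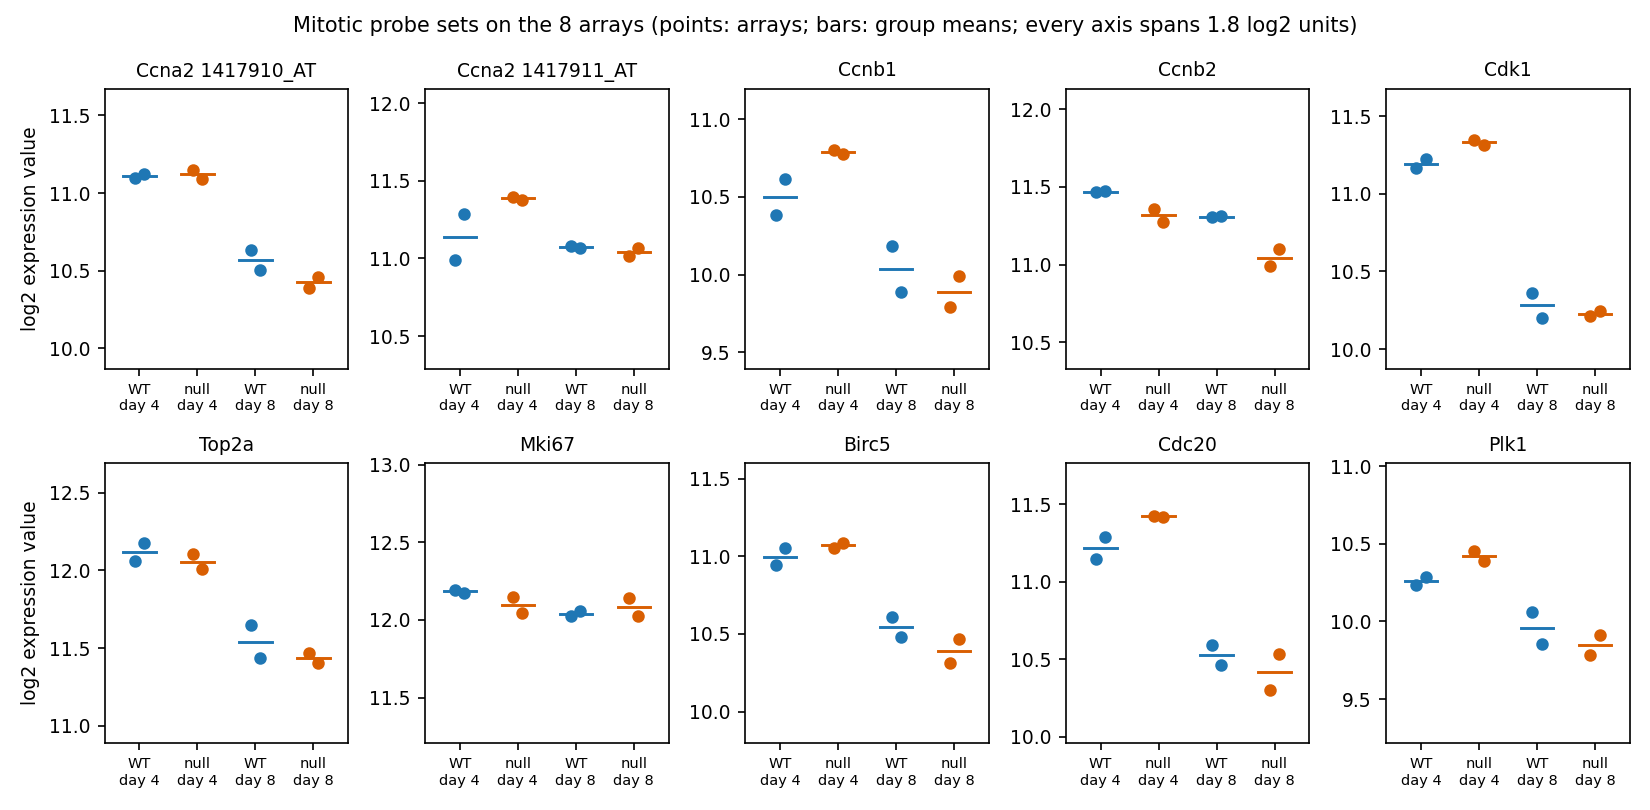
Log2 expression value (vertical axis) of each of the 10 probe sets on the 8 arrays, by group; points are arrays, bars are means of 2 arrays, and every vertical axis spans the same range. Cdk1 lies between 11.17 and 11.35 on the day 4 arrays and between 10.20 and 10.36 on the day 8 arrays, while Mki67 stays between 12.02 and 12.19 on all 8.

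Cdk1 (probe set 1448314_AT), the kinase that drives entry into mitosis, had the largest fall in both genotypes. Its log2 values in wild type were 11.17 and 11.22 at day 4 and 10.36 and 10.20 at day 8. In null they were 11.35 and 11.31 at day 4 and 10.21 and 10.25 at day 8. All 4 day 8 arrays lay below all 4 day 4 arrays. Wild-type Cdk1 fell by 0.91 on the log2 scale, or 1.88-fold (SE 0.07, n = 2 arrays per group, limma adjusted p = 3.1e-07), to 53.1% of its day 4 level. Null Cdk1 fell by 1.10, or 2.15-fold (SE 0.07, adjusted p = 6.1e-08), to 46.6%.

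Cyclin B1 and cyclin B2 both activate Cdk1 at mitosis, and they moved unequally. Ccnb1 (1419943_S_AT) stood at 10.38 and 10.61 in wild type at day 4 and at 10.18 and 9.88 at day 8. Null cells had 10.80 and 10.78, then 9.79 and 9.99. It had the widest spread between wild-type arrays among the cyclins at day 8, and still no day 8 array reached a day 4 array of the same genotype. Its fall was 1.38-fold in wild type (log2 change -0.46, SE 0.11, adjusted p = 0.0029) and 1.87-fold in null (-0.90, SE 0.11, adjusted p = 1.9e-05).

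Ccnb2 (1450920_AT) stood at 11.47 on both wild-type day 4 arrays and at 11.30 and 11.31 at day 8. The null values were 11.36 and 11.27, then 10.99 and 11.10. The days did not overlap within a genotype, but null day 4 arrays lay beside wild-type day 8 arrays. Ccnb2 fell 1.12-fold in wild type (log2 change -0.16, SE 0.06, adjusted p = 0.035) and 1.21-fold in null (-0.27, SE 0.06, adjusted p = 0.0021). The wild-type call was kept in 8 of the 16 alternatives, with adjusted p from 0.0075 to 0.67. Without any 1 of the 4 wild-type arrays it was lost while the log2 change stayed at -0.16 (adjusted p from 0.065 to 0.097). It was also lost without the filter (adjusted p = 0.051), without the intensity trend (0.099), after quantile normalization (log2 change -0.12, adjusted p = 0.093) and after cyclic loess, where the value was 0.03 (adjusted p = 0.67).

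Cyclin A2 acts in S phase and at the start of mitosis, and its 2 probe sets disagreed. The first, 1417910_AT, stood at 11.10 and 11.12 in wild type at day 4 and at 10.63 and 10.50 at day 8. In null it stood at 11.15 and 11.09, then at 10.39 and 10.46. All day 8 arrays were below all day 4 arrays. It fell 1.46-fold in wild type (log2 change -0.54, SE 0.07, adjusted p = 2e-05) and 1.62-fold in null (-0.70, SE 0.07, adjusted p = 2.3e-06). The second, 1417911_AT, stood at 10.99 and 11.29 in wild type at day 4 and at 11.08 and 11.06 at day 8, so that the day 8 values fell between the day 4 arrays. In null it stood at 11.39 and 11.38, then at 11.01 and 11.07, without overlap. The log2 change of the second was -0.07 in wild type (95% interval -0.26 to 0.12, adjusted p = 0.49), and in null it fell 1.27-fold (-0.34, SE 0.09, adjusted p = 0.0038). Wild-type day 4 replicate 1 bears on the wild-type value: without it the log2 change was -0.22 and was called (adjusted p = 0.011, the lowest over the alternatives, with 0.77 the highest), and without replicate 2 it was 0.08.

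The disagreement of the cyclin A2 probe sets was seen on each array. The second minus the first was -0.11 and 0.16 (log2) in wild type at day 4 and 0.24 and 0.29 in null at day 4. At day 8 it was 0.45 and 0.56 in wild type and 0.62 and 0.61 in null. All 4 day 8 arrays were above all 4 day 4 arrays, so the Ccna2 readout changed unequally at its 2 probe sets. As the pair was singled out after its values were seen, no test is given. Which part of the transcript each probe set reads was not analysed here.

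Plk1 (1448191_AT), a kinase of spindle assembly and mitotic entry, had values of 10.23 and 10.28 in wild type at day 4 and of 10.06 and 9.85 at day 8. In null the values were 10.46 and 10.39, then 9.78 and 9.91. Day 8 was below day 4 on all arrays of both genotypes. The fall was 1.23-fold in wild type (log2 change -0.30, SE 0.08, adjusted p = 0.0066) and 1.49-fold in null (-0.57, SE 0.08, adjusted p = 7.4e-05). The wild-type call was lost without wild-type day 8 replicate 2 (-0.20, adjusted p = 0.070) and after cyclic loess (-0.14, adjusted p = 0.14), and over all alternatives the adjusted p ran from 0.0012 to 0.14.

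Cdc20 (1416664_AT), which activates the anaphase promoting complex, had the second largest fall in both genotypes. It stood at 11.15 and 11.29 in wild type at day 4 and at 10.60 and 10.46 at day 8. Null arrays read 11.42 at day 4, both of them, then 10.30 and 10.53. The days were far apart beside the gaps between arrays of a group, which were 0.23 at most. Cdc20 fell 1.61-fold in wild type (log2 change -0.69, SE 0.09, adjusted p = 2.3e-05) and 2.00-fold in null (-1.00, SE 0.09, adjusted p = 9.2e-07), to 62.0% and 49.9% of the day 4 level.

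Top2a (1454694_A_AT), the topoisomerase that untangles sister chromatids, fell by a similar amount in both genotypes. Its values were 12.06 and 12.18 in wild type at day 4 and 11.65 and 11.43 at day 8. In null they were 12.10 and 12.01, then 11.47 and 11.40. No day 8 array reached a day 4 array. The log2 change was -0.58 in wild type (1.49-fold, SE 0.08, adjusted p = 3.9e-05) and -0.62 in null (1.54-fold, SE 0.08, adjusted p = 2.1e-05).

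Birc5 (survivin, 1424278_A_AT) is a subunit of the chromosomal passenger complex at centromeres and the midbody. It stood at 10.94 and 11.05 in wild type at day 4 and at 10.61 and 10.48 at day 8. In null it stood at 11.05 and 11.09, then at 10.31 and 10.47. Again the days did not overlap. Birc5 fell 1.37-fold in wild type (log2 change -0.45, SE 0.08, adjusted p = 0.00025) and 1.60-fold in null (-0.68, SE 0.08, adjusted p = 8.7e-06).

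Mki67 (1426817_AT) encodes Ki-67, the coat protein of mitotic chromosomes used as a marker of cycling cells, and its changes were among the smallest of the group. It stood at 12.19 and 12.18 in wild type at day 4 and at 12.02 and 12.06 at day 8. In null it stood at 12.15 and 12.04, then at 12.14 and 12.02. The wild-type days did not overlap, and the null days did. The wild-type fall was 1.11-fold (log2 change -0.15, SE 0.06, adjusted p = 0.049). It was no longer called in 10 of the 16 alternatives (range of adjusted p 0.011 to 0.43), among them without any 1 wild-type array (log2 change -0.16 to -0.13), without either null day 4 array (-0.15), and after cyclic loess, where the value was 0.06. In null the log2 change was -0.02 (95% interval -0.15 to 0.12, adjusted p = 0.82). Scaled to the hybridization controls it was -0.37 and called (adjusted p = 0.0034, the lowest over the alternatives, with 0.97 the highest), while the median of all tested probe sets was -0.35 under that scaling.

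**Figure D2:**
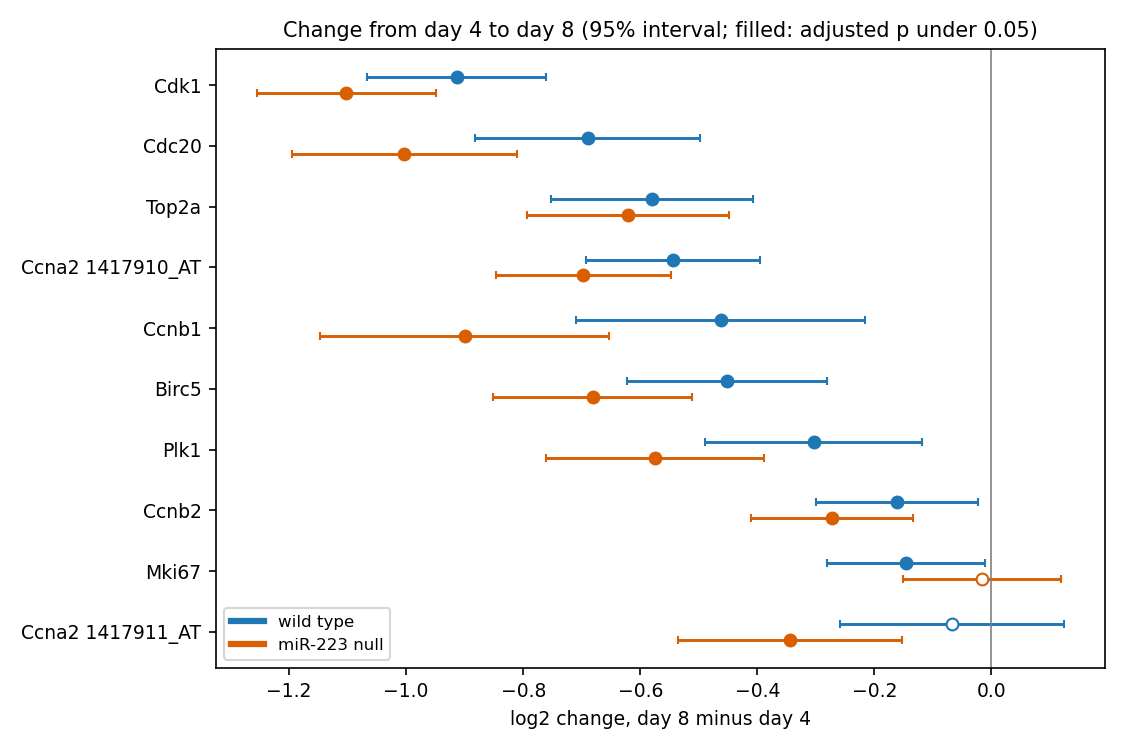
Log2 change from day 4 to day 8 (horizontal axis) of the 10 probe sets in wild type and miR-223 null cells, with the 95% interval of the limma fit; filled points have an adjusted p below 0.05. The points run from -1.10 (Cdk1, null) to -0.02 (Mki67, null), and the open points are those of 1417911_AT in wild type and Mki67 in null.

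The order of the falls was similar in both genotypes, with Cdk1 and Cdc20 first and Ccnb2, Mki67 and the second Ccna2 probe set last. Neighbours in that order mostly had overlapping 95% intervals: in wild type those of Cdc20 (-0.88 to -0.50), Top2a (-0.75 to -0.41), the first Ccna2 probe set (-0.69 to -0.39), Ccnb1 (-0.71 to -0.22) and Birc5 (-0.62 to -0.28) overlapped one another. The wild-type interval of Cdk1 (-1.07 to -0.76) overlapped that of Cdc20. In null those of Cdk1 (-1.26 to -0.95), Cdc20 (-1.20 to -0.81) and Ccnb1 (-1.15 to -0.65) overlapped one another. By value, Cdk1 was first in both genotypes, and Mki67 was last in null and next to last in wild type, where the second Ccna2 probe set was last. Cdk1 minus Mki67 within an array was -1.03 and -0.95 (log2) in wild type and -0.80 and -0.73 in null at day 4, and -1.66 and -1.85 in wild type and -1.93 and -1.78 in null at day 8. The 4 arrays of each day were separate, so the signal of Cdk1 fell relative to that of Mki67 in both genotypes. The genes of this pair were picked after their values were seen and so carry no test. The size of such a difference on 1 array depends on the probes and is not a ratio of transcripts.

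**Figure D3:**
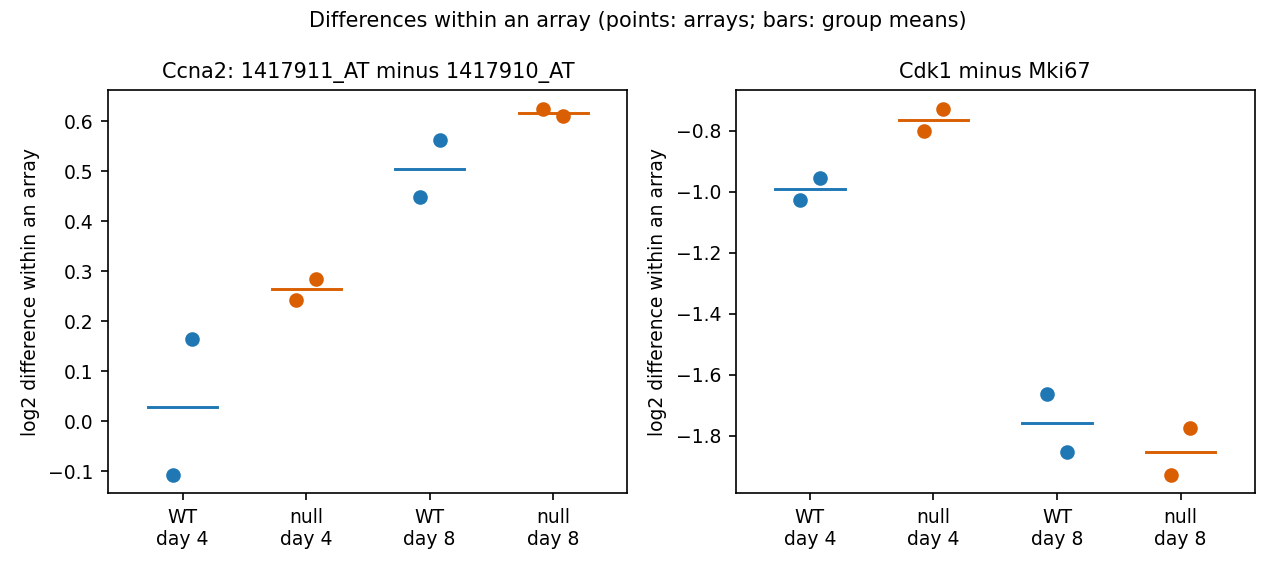
Differences in log2 value between 2 probe sets of the same array (vertical axes), by group; points are arrays and bars are means of 2. For Ccna2 the day 8 arrays (0.45 to 0.62) lie above the day 4 arrays (-0.11 to 0.29), and for Cdk1 minus Mki67 they lie below (-1.93 to -1.66 against -1.03 to -0.73).

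Within a group, the 10 probe sets tended to move together between the arrays. Wild-type day 4 replicate 1 was the lower array for 9 of the 10, null day 4 replicate 2 for 9, wild-type day 8 replicate 2 for 8 and null day 8 replicate 1 for 8. The median gap between the arrays of a group was 0.08, 0.05, 0.13 and 0.11 for the 10 probe sets in these groups, beside 0.14, 0.08, 0.11 and 0.10 for all tested. With its sign, the median of replicate 1 minus replicate 2 was -0.08, 0.05, 0.13 and -0.09 for the 10. For all tested it was -0.04, 0.00, 0.01 and -0.02. The upper quartile of the wild-type day 4 arrays also differed, at 7.93 and 8.00. The part of such array-wide shifts was not tested. The 10 probe sets are therefore not separate measurements of a group's state. Their mean on an array was 11.17 and 11.27 in wild type and 11.32 and 11.28 in null at day 4, and 10.85 and 10.72 in wild type and 10.64 and 10.72 in null at day 8.

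Other values of the arrays moved with the day too. The array medians differed by 0.05 at most. The upper quartile of an array, however, was 7.93 to 8.00 at day 4 and 7.72 to 7.80 at day 8. The 10 probe sets, at 9.78 to 12.19, lay above these quartiles. The log2 signal of beta-actin at its 3' over its 5' control probe set was 0.36 to 0.44 at day 4 and 0.10 to 0.17 at day 8, whereas that of Gapdh was -0.02 to 0.05 and -0.08 to -0.03. The mean of the 18 hybridization control probe sets was 9.75 to 9.88 at day 4 and 9.95 to 10.18 at day 8. The part of these array values in the falls was not tested. With each array shifted to equal hybridization controls, the median over all tested probe sets became -0.21 in wild-type and -0.35 in null cells, and that of the 10 became -0.62 and -1.00. Of all calls in null, 47.4% were higher at day 8 in the deposited values and 29.9% with this shift. After quantile normalization the median of all was 0.10 and 0.08, and that of the 10 was -0.38 and -0.62. The median of the 10 lay below that of all tested probe sets by 0.42 in wild type and 0.65 in null as deposited. Equal hybridization controls cannot change this gap, because the shift is the same for every probe set of an array. The gap was 0.48 and 0.70 after quantile normalization, and 0.28 and 0.52 after cyclic loess. With a stricter filter, which kept only brighter probe sets, it narrowed to 0.31 and 0.56.

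**Figure D4:**
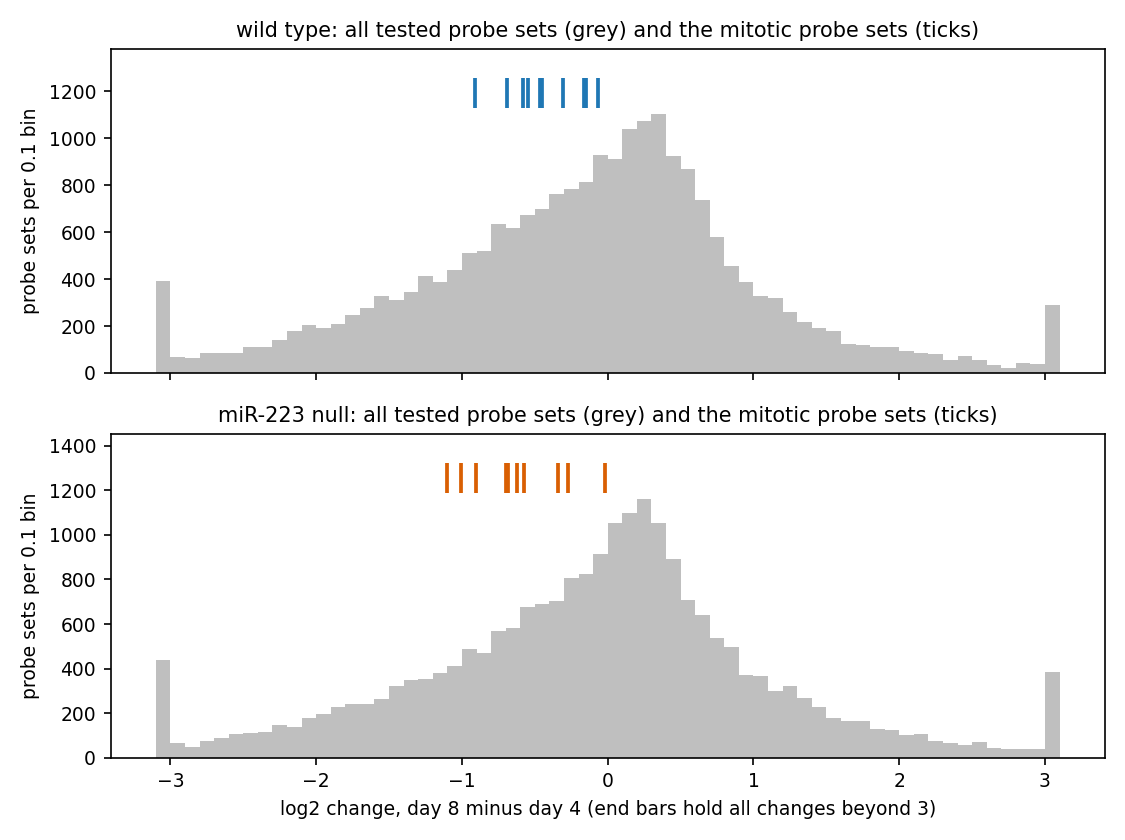
Number of tested probe sets (vertical axis) by log2 change from day 4 to day 8 in bins of 0.1 (horizontal axis), in wild type above and null below; ticks mark the 10 mitotic probe sets and the end bars hold all changes beyond 3. The ticks lie between -0.91 and -0.07 in wild type and between -1.10 and -0.02 in null, inside the broad middle of the grey distribution.

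In progenitors, the loss of miR-223 left no called difference in the mitotic transcripts. At day 4 limma called 0 of the 10 probe sets between null and wild type, with 2.72% called among all tested. Of the 10, 4 had an unadjusted p below 0.05, against 18% of all tested. Of all probe sets called at day 4, 21.4% were higher in null in the deposited values, 34.3% after cyclic loess and 51.9% with equal hybridization controls. The arrays of the 2 genotypes did not overlap for 8 of the 10, higher in null for 6 and lower for 2, beside 21.1% of all tested probe sets that were higher and 27.8% that were lower without overlap. The largest difference was that of Ccnb1, 1.22-fold higher in null (log2 difference 0.29, 95% interval 0.04 to 0.54, adjusted p = 0.20). The second Ccna2 probe set followed (0.25, interval 0.06 to 0.44, adjusted p = 0.16), then Cdc20 (0.20, interval 0.01 to 0.39, adjusted p = 0.25), Plk1 (0.16) and Cdk1 (0.14).

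At the same stage Ccnb2 was the member with the lowest difference (-0.15, interval -0.29 to -0.01, adjusted p = 0.23), so the B cyclins lay on opposite sides of 0. The rest lay close to 0, with Birc5 at 0.07, the first Ccna2 probe set at 0.01, Top2a at -0.06 and Mki67 at -0.09. None of the intervals reached a 2-fold difference, and the widest bound, that of Ccnb1, was 0.54. Without wild-type day 4 replicate 2 the second Ccna2 probe set was called higher in null (0.40, adjusted p = 0.0086, in a range up to 0.56 over the alternatives), and the calls over all tested probe sets rose from 613 to 1658. Without wild-type day 4 replicate 1, its difference was 0.10, that of Ccnb1 was 0.18 and that of Cdc20 was 0.13, and 0 of the 10 were called.

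In mature neutrophils, Ccnb2 was called between the genotypes and the other 9 probe sets were not. It was 1.20-fold lower in null at day 8, with 11.30 and 11.31 in wild type against 10.99 and 11.10 in null (log2 difference -0.26, SE 0.06, n = 2, limma adjusted p = 0.036). Calls made up 5.31% of all tested probe sets and calls of lower expression 1.22%. Ccnb2 was no longer called in 10 of the 16 alternatives (range of adjusted p 0.018 to 0.25): without any 1 of the 4 day 8 arrays (log2 difference -0.32 to -0.21) or either null day 4 array, without the filter, without the intensity trend, with equal medians and with equal hybridization controls. Its sign was kept in all 16. The null also had the lower Ccnb2 mean at day 4, where the difference was not called.

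The other 9 differences at day 8 were small. Of these, 8 were below 0, from -0.16 (Birc5, interval -0.33 to 0.01) and -0.15 (Ccnb1, interval -0.39 to 0.10) to -0.03 (second Ccna2 probe set), and Mki67 was at 0.04. The arrays of the genotypes did not overlap for 3 of the 10 (the first Ccna2 probe set, Ccnb2 and Birc5, all lower in null), beside 20.6% of all tested probe sets that were lower without overlap. The median difference of the 10 was -0.11, beside 0.02 for all tested. This median moved with single day 8 arrays. Leaving out wild-type replicate 1 made it -0.01, with 6 of the 10 below 0, and leaving out wild-type replicate 2 made it -0.21. For the null arrays it was -0.04 when replicate 1 was dropped and -0.18 when replicate 2 was. Cdk1 stood at 10.36 and 10.20 in wild type against 10.21 and 10.25 in null, a difference of -0.05 (interval -0.21 to 0.10). Of all tested probe sets that were called at day 8, 77.1% were higher in null in the deposited values. The share was 67.8% after quantile normalization, 68.6% after cyclic loess and 47% with equal hybridization controls.

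**Figure D5:**
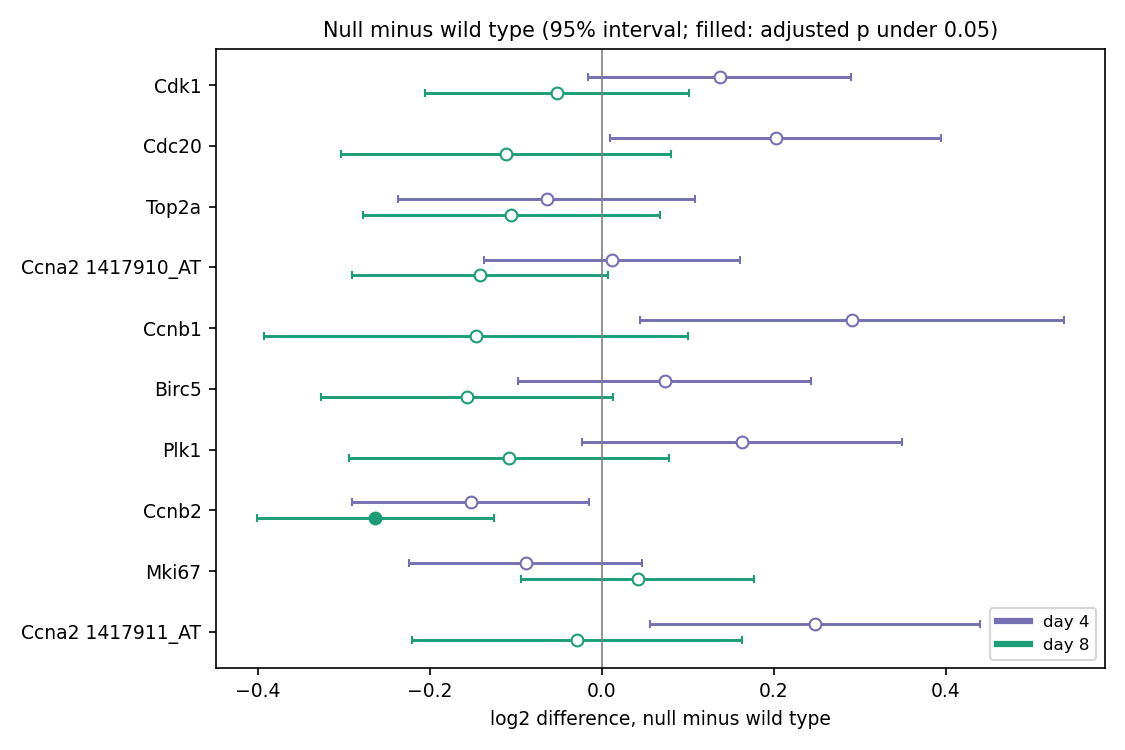
Log2 difference between miR-223 null and wild-type cells (horizontal axis) of the 10 probe sets at day 4 and at day 8, with the 95% interval of the limma fit; the filled point has an adjusted p below 0.05. Day 4 points run from -0.15 (Ccnb2) to 0.29 (Ccnb1) and day 8 points from -0.26 (Ccnb2, filled) to 0.04 (Mki67).

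The difference between the days in the effect of genotype was tested itself, which is also the difference between the genotypes in the fall. The fall had a larger value in null for 9 of the 10 probe sets, all but Mki67, yet limma called 0 of the 10, with 1.66% called among all tested. An unadjusted p below 0.05 was seen for 4 (the second Ccna2 probe set, Ccnb1, Cdc20 and Plk1), against 16.5% of all tested. The largest value was that of Ccnb1, whose fall was larger in null by 0.44 on the log2 scale (log2 difference -0.44, 95% interval -0.79 to -0.09, adjusted p = 0.20). Cdc20 followed (-0.31, interval -0.59 to -0.04, adjusted p = 0.23). Top2a had -0.04 (interval -0.28 to 0.20) and Mki67 0.13 (interval -0.06 to 0.32). Leaving out wild-type day 8 replicate 1 gave Ccnb1 a value of -0.29, and leaving out replicate 1 of the null day 8 group gave Cdc20 a value of -0.20. The median of the 10 was -0.21, or -0.14 when wild-type day 8 replicate 1 was left out, beside 0.04 for all tested probe sets. Of all calls of this difference, 93.3% were positive in the deposited values and 49.2% with equal hybridization controls. Without wild-type day 4 replicate 2 the second Ccna2 probe set was called (-0.43, adjusted p = 0.025, in a range up to 0.50 over the alternatives), and the calls over all tested probe sets rose from 373 to 890.

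The probe sets with the most similar pattern were sought by the root mean square difference, over the 8 arrays, between a probe set's centred log2 profile and the mean centred profile of the 10. The nearest outside the group were 1451700_A_AT (0.02) and 1423813_AT (0.03), which changed by -0.43 and -0.44 in wild type and by -0.60 and -0.58 in null. Their genes are not paired with identifiers in the sources used here. Of the 10, Birc5 was the nearest to their own mean (0.04), followed by the first Ccna2 probe set and Plk1 (both 0.06). Cdk1 (0.24) and Mki67 (0.25) were the farthest. Among the 22519 tested probe sets, Birc5 ranked 5, Cdc20 2579, the second Ccna2 probe set 2971, Ccnb2 3201, Cdk1 5045 and Mki67 5208. Many other probe sets thus lay nearer to this mean than several of the 10, although each of the 10 enters the mean itself.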

How the data were processed

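Expression was measured on 8 Affymetrix arrays, 2 in each of 4 groups of genotype and day. The authors deposited 1 value per probe set and array, taken as log2 because of its range. The submitters' processing notes name GCOS, the scanner software, without a version, and no source used here gives the summarization, background correction or normalization. Of the 45037 probe sets without controls, the 22519 with a mean at or above the median (5.51) were fitted with limma 3.58.1 in R 4.3.3 (4 group means, no replicate block, eBayes with an intensity trend, 4 residual degrees of freedom). The 5 contrasts were two-sided, with Benjamini-Hochberg adjustment over all tested probe sets and a threshold of 0.05. An exact permutation test of 2 arrays against 2 cannot give a p below 0.333. Precision is limited by the number of arrays, with a median SE of 0.12 for a change on the log2 scale.

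All 10 probe sets were named in all comparisons by rule, and the 2 most similar others are given. Probe sets of other genes were not named, so the lists of further cell cycle genes and of cell type markers, the sorted phenotypes and the loss of miR-223 were not analysed here. Promoter and microRNA sequences are RefSeq's (GRCm38.p6). The members and lists were chosen with earlier results of these data known.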

Additional observations from a re-analysis of the deposited data

How the results depend on the processing

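The alternatives numbered 16: the replicate number as a block, no filter, a stricter filter (75th percentile), 4 other normalizations, no intensity trend, and each of the 8 arrays left out. The falls of Cdk1, Cdc20, Top2a, Ccnb1, Birc5 and the first Ccna2 probe set were called in all 16 in both genotypes. In wild type the count of lower probe sets was 7 without the filter, beside 11100 of all 45037 tested there. It was 7 without the intensity trend and after quantile normalization, beside 9351 and 8373 of all 22519 tested. After cyclic loess it was 6, beside 8909. In null it was 9 in these settings, beside 10578, 8930, 8322 and 8827 in the same order. With equal hybridization controls the null count was 10, beside 11487. With 1 array left out, the median change of the 10 was -0.56 to -0.35 in wild type and -0.69 to -0.62 in null. For null against wild type at day 4 the count of 0 became 1 without wild-type day 4 replicate 2 (range 0 to 1), as did the count for the difference between the days (range 0 to 1). The count of 1 at day 8 (Ccnb2) became 0 without the filter, with equal medians, with equal hybridization controls and without the intensity trend, and was 0 to 1 with 1 array left out. The cause of these losses was not tested.

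Of 800 values under the alternatives, 23 changed sign, 2 of them called as deposited (Ccnb2 and Mki67 in wild type) and 0 called after the change. Cyclic loess turned the wild-type changes of the second Ccna2 probe set (0.12), Ccnb2 (0.030) and Mki67 (0.059), the null change of Mki67 (0.13), and the day 8 genotype difference of Mki67 (0.00). Equal hybridization controls turned the day 4 differences of Top2a (0.028) and Mki67 (0.0039), the day 8 difference of Mki67 (-0.051) and its difference between the days (-0.055). Quantile normalization turned the day 4 difference of the first Ccna2 probe set (-0.0014). With 1 array left out, sign changes were seen for the second Ccna2 probe set in wild type (-0.22 to 0.084), Mki67 in null (-0.074 to 0.042), the first Ccna2 probe set at day 4 (-0.017 to 0.041), and at day 8 Ccnb1 (-0.30 to 0.0038), Cdk1 (-0.13 to 0.027), Top2a (-0.21 to 0.0021), Mki67 (-0.016 to 0.10) and Cdc20 (-0.23 to 0.0040), and for the difference between the days in Top2a (-0.15 to 0.066).

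Arrays of different groups share replicate numbers. The deviations of same-numbered arrays from their group means correlated at -0.05 to 0.22 over the 6 pairs of groups. Whether same-numbered arrays share a culture or a sort is not stated. These correlations cannot decide it, as a weak shared effect could give them too. With the replicate block 9, 9, 0, 1 and 0 of the 10 were called in the 5 comparisons, as without it, and the calls over all tested probe sets were 630 at day 4, 1225 at day 8 and 319 for the difference between the days, against 613, 1195 and 373. Unlike with the block, those calls over all tested probe sets moved by over 1.5 times without the intensity trend (222, 747 and 129). The same held at day 8 with equal hybridization controls (694). For the difference between the days it held with equal hybridization controls (124), after quantile normalization (209) and after cyclic loess (198). In each of these comparisons it held as well with some single arrays left out. The stricter filter tested 11260 probe sets and so called fewer over maturation (9601 in wild type against 17374, and 9673 in null against 17085).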
